A study of Mus musculus with 5 samples.

Results

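The genes described here are 9 mouse genes of the interferon response and of MHC class I, of 25873 named genes in the deposited table: Ifi27, Isg15, Ifitm2, Ifitm3, Bst2, Irf1, B2m, H2-K1 and H2-D1. They were chosen by name with an earlier result on these same libraries known, in which interferon response genes stood higher in the Notch1 knockout library than in WT. Levels in that library against WT, and against Notch2 cKO, are therefore given as a description with no test, and tests are given only for Notch2 cKO against WT, which shares the WT libraries with the choice. Of the 9 genes, 8 averaged at least 1 RPKM over the libraries (reads scaled to gene length in kilobases and to library size) and entered the tests among 11543 genes, and Isg15 did not.

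The study asked what Notch1 and Notch2 do in fetal muscle formation. RNA came from tdTomato-positive, lineage-negative cells sorted from limb muscle of E16.5 embryos on the C57BL/6J strain. The groups were WT (Pax7-CreER; Rosa-tdTomato; 2 libraries, Em2 and Em4), Notch1 cKO (Pax7-CreER; Notch1f/f; Rosa-tdTomato; 1 library, Em8) and Notch2 cKO (Pax7-CreER; Notch2f/f; Rosa-tdTomato; 2 libraries, Em3 and Em4). All groups, WT included, carried Pax7-CreER and the reporter, and their mothers were given oral tamoxifen (240 mg/kg) on 2 days, the first at E12.5. Pax7 marks muscle progenitors, so deletion and reporter were both limited to cells that expressed Pax7 at that time and to their descendants. Nothing in the labels says whether 2 libraries of a group came from separate embryos or litters, so the spread between them may be technical.

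Interferons bind receptors that activate JAK kinases. Transcription factors then bind interferon-stimulated response elements (ISRE) and gamma-activated sites (GAS) near the start of the induced genes. MHC class I molecules are a heavy chain and the light chain beta-2 microglobulin holding a peptide supplied by the proteasome and the TAP transporter. Muscle fibres are known for carrying little class I on their surface unless inflamed.

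Libraries held from 20740000 to 28830000 reads, as implied by the RPKM values. Notch1 was lower in Notch1 cKO Em8 (2.33 RPKM) than in any other library (7.26 to 13.5 RPKM), and Notch2 stood at 3.35 and 2.03 RPKM in the Notch2 cKO libraries against 2.40 and 4.17 RPKM in WT, which does not separate the groups. The deleted exons cannot be told from others in values per gene. Muscle genes were high in all 5 libraries (Myog, a myogenic transcription factor, ran from 944 to 1737 RPKM). Globin messages remained in all of them, although Ter119-stained red cells were to be gated out (Hba-a2 165 to 676 RPKM). Notch2 cKO Em3 stood apart in listing 12.7% of named genes at 0, where the other libraries listed 24.5% to 31.7%, and in its heat shock messages: Hspa1a stood at 120.2 RPKM there and at 2.11 to 7.92 elsewhere, and Hspa1b at 165 against 3.16 to 9.23. Without that library, the Notch2 cKO difference from WT on log2(RPKM + 1) was 0.68 for H2-K1, 0.69 for H2-D1, -0.43 for Ifi27 and -0.23 for Ifitm3, beside 0.80, 0.65, -0.52 and -0.34 with it. The column names also hold digits of unstated meaning, the same for WT Em4 as for Notch2 cKO Em4, the same for Notch1 cKO Em8 as for Notch2 cKO Em3, and different for WT Em2, so that no Notch1 cKO library shares them with WT.

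Promoter sequence was matched in RefSeq (GRCm38.p6) for 8 of the 9 genes, and Ifi27 had no entry. Windows of 300 bases, from 250 before to 50 after each start, were searched on both strands for the ISRE letters GAAANNGAAA and the GAS letters TTCNNNGAA. The ISRE letters were in 3.44% of 32851 promoter windows and the GAS letters in 8.30%. Of the 8 genes, 5 had the ISRE letters, 3 had the GAS letters and 6 had either. The 6 stretches are shown because they carry these matches, which are in capitals, and because the genes that have them did not all differ alike between libraries. Each is written 5′ to 3′ on the strand of its gene and, except for Ifitm3, ends at the base before the start.
Isg15: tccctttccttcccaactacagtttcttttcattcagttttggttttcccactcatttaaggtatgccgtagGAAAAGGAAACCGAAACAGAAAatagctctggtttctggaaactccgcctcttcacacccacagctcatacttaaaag
Bst2: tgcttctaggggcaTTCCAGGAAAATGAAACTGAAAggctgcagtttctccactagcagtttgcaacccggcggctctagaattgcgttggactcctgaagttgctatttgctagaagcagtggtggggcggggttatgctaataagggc
Ifitm2: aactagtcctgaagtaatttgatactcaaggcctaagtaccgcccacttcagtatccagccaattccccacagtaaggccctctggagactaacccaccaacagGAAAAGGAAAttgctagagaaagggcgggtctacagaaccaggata
Ifitm3: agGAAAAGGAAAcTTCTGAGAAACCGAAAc
B2m: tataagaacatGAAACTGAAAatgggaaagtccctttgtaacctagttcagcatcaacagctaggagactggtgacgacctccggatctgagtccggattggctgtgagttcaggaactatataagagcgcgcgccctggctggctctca
Irf1: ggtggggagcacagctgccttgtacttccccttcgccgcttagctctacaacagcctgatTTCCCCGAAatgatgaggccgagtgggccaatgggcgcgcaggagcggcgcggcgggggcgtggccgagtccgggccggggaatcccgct

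The Isg15 stretch (chr4:156200819-156200968, minus strand) held 3 overlapping ISRE matches that began 78, 72 and 66 bases before the start. The Bst2 stretch (chr8:71537473-71537622, minus strand) held 2 overlapping ISRE matches at 130 and 124 bases before the start, the first of them overlapping a GAS match at 136. In Ifitm2 (chr7:140955962-140956111, minus strand) and B2m (chr2:122147537-122147686, plus strand) a single ISRE match began 46 and 139 bases before the start. Ifitm3 had its matches after the start (chr7:141010715-141010744, minus strand, the first 30 bases), with ISRE letters beginning 2 and 19 bases after the start base and a GAS match beginning 13 bases after it that overlaps the later of them. Irf1 (chr11:53769864-53770013, plus strand) had a GAS match 90 bases before the start and no ISRE letters. The windows of H2-K1 and H2-D1 held neither set of letters. A match says only that these letters are there. The lack of one does not show that such an element is absent, since only these exact letters were searched.

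Levels differed by over 2 orders of magnitude among the genes, on the RPKM scale, which is per length. Ifitm2 was highest with a mean of 306 RPKM (SD 102, n = 5 libraries over all groups), above 96.5% of the genes tested. B2m followed at 119 (SD 27.5), then Irf1 at 97.7 (SD 10.5) and Ifitm3 at 96.5 (SD 33.4). B2m exceeded Ifitm3 in every library, by little in Notch1 cKO Em8 (152 against 151 RPKM). The rank of Irf1 among these 3 changed between libraries. Ifi27 stood at 63.0 (SD 30.2), below Ifitm3 in every library, and Bst2 at 27.5 (SD 4.72). The class I heavy chains were far lower, H2-D1 at 2.90 (SD 0.969) and H2-K1 at 2.53 (SD 0.994), which overlap each other and lie above only 20.2% and 17.5% of the genes tested. Isg15 was lowest at 0.900 RPKM (SD 0.665).

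**Figure D1:**
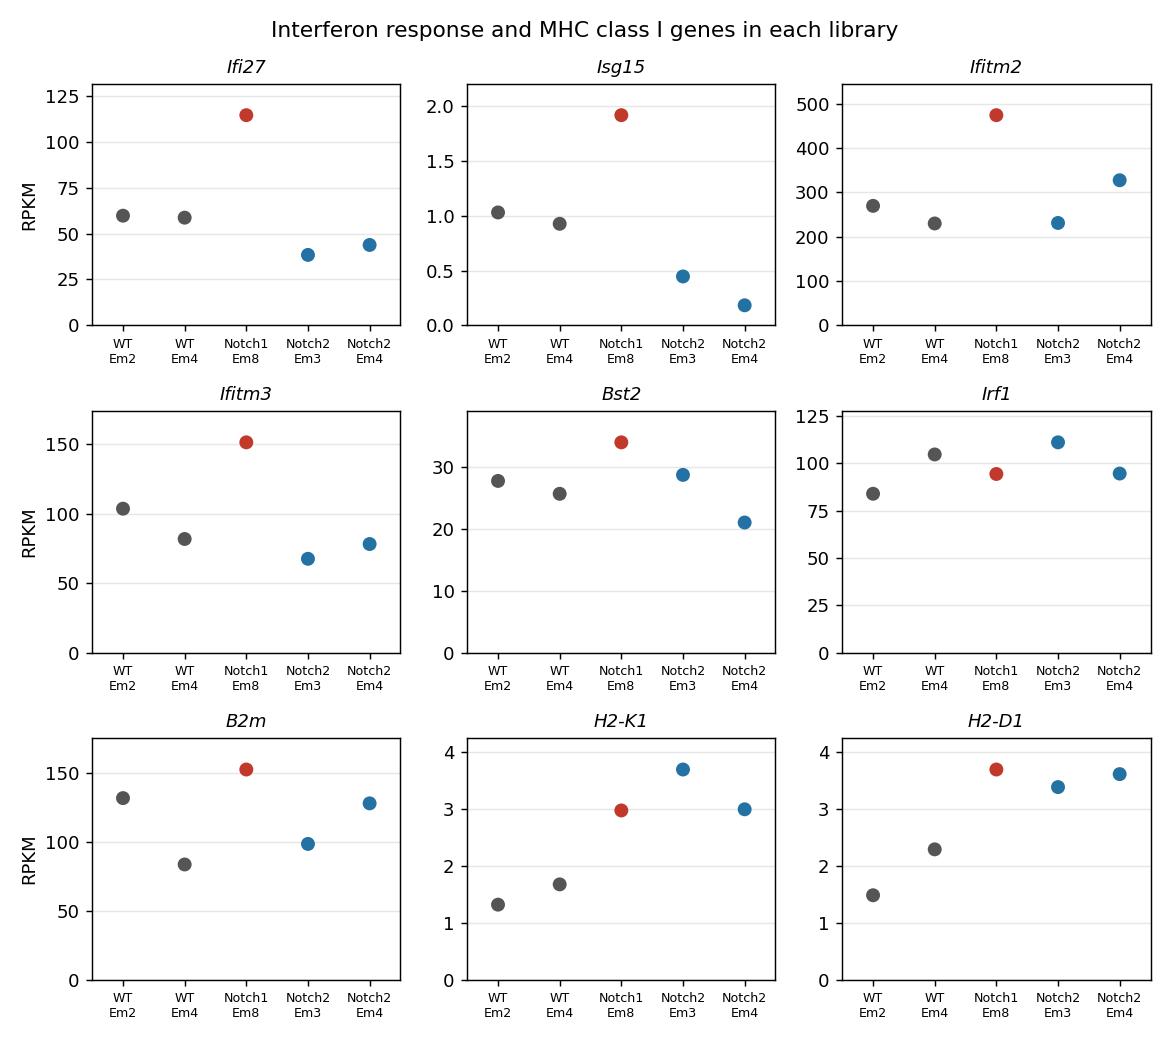
RPKM of the 9 genes in each of the 5 libraries (grey WT, red Notch1 cKO, blue Notch2 cKO), 1 point per library, each panel on its own linear axis from 0. Notch1 cKO Em8 is the highest point for Ifi27, Isg15, Ifitm2, Ifitm3, Bst2, B2m and H2-D1, while for H2-K1 and H2-D1 both Notch2 cKO points also lie above both WT points.

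Ifi27, Ifitm3 and Isg15 shared a pattern: Notch1 cKO Em8 lay above both WT libraries and both Notch2 cKO libraries lay below them. Ifi27 (ENSMUSG00000064215.13, chr12:103434211-103440239, plus strand, GRCm38) encodes a small interferon-induced membrane protein. Its level was 59.7 RPKM in WT Em2, 58.6 in WT Em4, 114 in Notch1 cKO Em8, 38.4 in Notch2 cKO Em3 and 43.8 in Notch2 cKO Em4. The WT pair was nearly equal, Notch1 cKO Em8 was 1.93 times its mean, and neither Notch2 cKO library reached it. These values rest on 838 to 3077 reads per library. On log2(RPKM + 1), Notch2 cKO was lower than WT by a difference of -0.52 (SE 0.26, 95% interval -1.04 to -0.001), with adjusted p = 0.654 in limma, so the gene was not called.

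Ifitm3 (ENSMUSG00000025492.6, chr7:141009586-141010770, minus strand) is a membrane protein that blocks fusion of entering viruses. It stood at 103.7 RPKM in WT Em2, 81.8 in WT Em4, 151 in Notch1 cKO Em8, 67.6 in Notch2 cKO Em3 and 78.2 in Notch2 cKO Em4. The gap between Notch2 cKO Em4 and WT Em4 was small beside that between the WT libraries. The Notch2 cKO difference from WT was -0.34 on the log2 scale (SE 0.26, 95% interval -0.86 to 0.18), with adjusted p = 0.797 in limma.

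Isg15 (ENSMUSG00000035692.6, chr4:156199424-156200818, minus strand), a ubiquitin-like protein that is joined to other proteins after interferon signalling, was read too rarely to be tested. It had 19 reads in WT Em2, 16 in WT Em4, 37 in Notch1 cKO Em8, 7 in Notch2 cKO Em3 and 4 in Notch2 cKO Em4. These correspond to 1.03, 0.926, 1.92, 0.446 and 0.184 RPKM, in the same order of groups as Ifi27. Without the filter on low values, the Notch2 cKO difference from WT was -0.60 on the log2 scale (SE 0.20), with adjusted p = 0.730 in limma. A count of this size carries a large counting error, and 3 reads, the most that a 0 allows, come to between 0.104 and 0.145 RPKM for a gene of 1000 bases.

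Among the genes tested, 2.35% had Notch1 cKO Em8 above and both Notch2 cKO libraries below both WT libraries, as Ifi27 and Ifitm3 did. The Notch1 side of that pattern is what the choice of genes used. Both Notch2 cKO libraries lay below both WT libraries for 9.44% of the genes tested, and for 2 of the 8 genes here.

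Ifitm2 and Bst2 were high in Notch1 cKO Em8 with no separation of Notch2 cKO from WT. Ifitm2 (ENSMUSG00000060591.9, chr7:140954837-140955987, minus strand), the close relative of Ifitm3, stood at 269 RPKM in WT Em2, 230 in WT Em4, 474 in Notch1 cKO Em8, 231 in Notch2 cKO Em3 and 327 in Notch2 cKO Em4. Notch1 cKO Em8 was 1.90 times the WT mean, and the Notch2 cKO libraries differed from each other by more than their mean differed from WT. The ratio of Ifitm2 to Ifitm3 was 2.60 and 2.81 in WT, 3.13 in Notch1 cKO Em8, with 3.42 and 4.18 in Notch2 cKO, so the relatives did not keep step. Of the 50-base windows of the Ifitm2 transcripts in GENCODE M21, 48.5% also occur in transcripts of other genes, and 10.0% of those of Ifitm3, so reads of Ifitm2 in particular could have been divided with its copies. The Notch2 cKO difference of Ifitm2 from WT was 0.14 on the log2 scale (SE 0.28, 95% interval -0.41 to 0.70), with adjusted p = 0.924 in limma.

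Bst2 (ENSMUSG00000046718.8, chr8:71534255-71537456, minus strand), or tetherin, holds budding enveloped viruses at the cell surface. It stood at 27.8 RPKM in WT Em2, 25.7 in WT Em4, 34.1 in Notch1 cKO Em8, 28.8 in Notch2 cKO Em3 and 21.1 in Notch2 cKO Em4. Notch1 cKO Em8 exceeded the next library by less than the Notch2 cKO libraries differed from each other. The Notch2 cKO difference from WT was -0.11 on the log2 scale (SE 0.27, 95% interval -0.66 to 0.43), with adjusted p = 0.943 in limma.

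Irf1 (ENSMUSG00000018899.16, chr11:53770014-53778374, plus strand), a transcription factor of interferon-gamma signalling and an activator of class I genes, was the steadiest of the 9. It stood at 83.8 RPKM in WT Em2, 104.6 in WT Em4, 94.3 in Notch1 cKO Em8, 111 in Notch2 cKO Em3 and 94.5 in Notch2 cKO Em4. Notch1 cKO Em8 fell between the WT libraries, which makes Irf1 the exception among the 8 genes tested. Its log2 difference was 0.01 (SE 0.32) in Notch1 cKO and 0.13 in Notch2 cKO (SE 0.26, 95% interval -0.39 to 0.65), the latter with adjusted p = 0.929 in limma. Irf1 is also induced early by stress and handling. Among 18 dissociation and immediate early genes, whose summed level was 2364 and 2793 RPKM in WT, 3144 in Notch1 cKO Em8, with 4077 and 2717 in Notch2 cKO, 12 stood above both WT libraries in Notch1 cKO Em8 (24.3% of all genes tested did) and 11 in both Notch2 cKO libraries (28.3%). Those called in Notch2 cKO were Hspa1a and Hspa1b, high in Notch2 cKO Em3 alone. The part of handling in the level of Irf1 was not tested.

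B2m (ENSMUSG00000060802.8, chr2:122147686-122153083, plus strand) encodes the light chain of every classical class I molecule. It stood at 132 RPKM in WT Em2, 83.5 in WT Em4, 152 in Notch1 cKO Em8, 98.4 in Notch2 cKO Em3 and 128 in Notch2 cKO Em4. The WT libraries differed by 0.65 on the log2 scale, more than Notch1 cKO Em8 differed from their mean (0.53, SE 0.33). Its Notch1 cKO difference was 0.21 without WT Em4 and 0.86 without WT Em2. In Notch2 cKO against WT the difference was 0.10 (SE 0.27, 95% interval -0.43 to 0.63), with adjusted p = 0.954 in limma.

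The class I heavy chains H2-K1 and H2-D1 were low, yet they were the only ones of the 8 genes for which all 3 knockout libraries stood above both WT libraries. H2-K1 (ENSMUSG00000061232.16, chr17:33996017-34000347, minus strand) stood at 1.32 RPKM in WT Em2, 1.67 in WT Em4, 2.97 in Notch1 cKO Em8, 3.69 in Notch2 cKO Em3 and 2.99 in Notch2 cKO Em4. In reads, that is 53 and 63 in WT, 125 in Notch1 cKO Em8, with 126 and 142 in Notch2 cKO. The Notch2 cKO mean was 2.23 times the WT mean. On the log2 scale the difference was 0.80 (SE 0.31, 95% interval 0.17 to 1.42), with adjusted p = 0.463 in limma.

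H2-D1 (ENSMUSG00000073411.11, chr17:35262730-35267499, plus strand) stood at 1.49 RPKM in WT Em2, 2.29 in WT Em4, 3.70 in Notch1 cKO Em8, 3.39 in Notch2 cKO Em3 and 3.62 in Notch2 cKO Em4. Its reads numbered 63 and 91 in WT, 164 in Notch1 cKO Em8, with 122 and 181 in Notch2 cKO. The Notch2 cKO mean was 1.85 times the WT mean, and the log2 difference was 0.65 (SE 0.32, 95% interval 0.02 to 1.28), with adjusted p = 0.640 in limma. Neither heavy chain was called. Between the knockouts, Notch2 cKO differed from Notch1 cKO Em8 by 0.12 for H2-K1 and -0.06 for H2-D1. Of H2-K1 windows 9.63%, and of H2-D1 windows 12.8%, are shared with other genes, among them each other and the H2-Q genes, so the division of reads between them is uncertain.

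These heavy-chain values meet a background in which 28.3% of all genes tested had both Notch2 cKO libraries above both WT libraries, and 8.32% had all 3 knockout libraries above both. The median of all genes tested was itself 0.14 higher in Notch2 cKO than in WT on the log2 scale. Of 12 interstitial fibroblast genes, 5 stood above both WT libraries in all 3 knockout libraries. The summed level of all 15 genes of that list in the table was 197 and 340 RPKM in WT, 478 in Notch1 cKO Em8, with 295 and 498 in Notch2 cKO. Single genes of the list differed in order. Notch2 cKO Em3 was below WT Em4 for Col3a1 (99.6 against 119.6 RPKM) and above it for Mfap5 (13.96 against 6.32 RPKM). The part of these cells in the class I values was not tested.

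The light chain was far more abundant than the heavy chains in every library. B2m exceeded H2-K1 by 99.8 and 49.9 times in WT, 51.2 times in Notch1 cKO Em8, and 26.7 and 42.7 times in Notch2 cKO. WT Em2 stands out with the highest B2m to H2-K1 ratio, while WT Em4 lies next to Notch1 cKO Em8. The ratio of H2-D1 to H2-K1 stayed between 0.918 and 1.37.

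In Notch2 cKO against WT, limma called 0 of the 8 genes at an adjusted p under 0.05, where 0.537% of all genes tested were called (41 higher and 21 lower). At an unadjusted p under 0.05 there were 3, Ifi27 lower and H2-K1 and H2-D1 higher, and 881 of the 11543 genes tested. Their median log2 difference was 0.11, close to the 0.14 of all genes tested.

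In Notch1 cKO Em8 against WT, described with no test for these genes, the library lay above both WT libraries for 7 of the 8, and for 24.3% of all genes tested. The choice of genes used this comparison. The log2 differences were 0.94 for Ifi27 (SE 0.32), 0.93 for Ifitm2 (SE 0.34), 0.71 for Ifitm3 (SE 0.32), 0.72 for H2-D1 (SE 0.39), 0.67 for H2-K1 (SE 0.38), 0.53 for B2m and 0.34 for Bst2 (SE 0.34). The median of the 8 was 0.69 and of all genes tested 0.01. With a single Notch1 cKO library, its own spread is unknown, and the errors assume that it varies like the other groups.

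**Figure D2:**
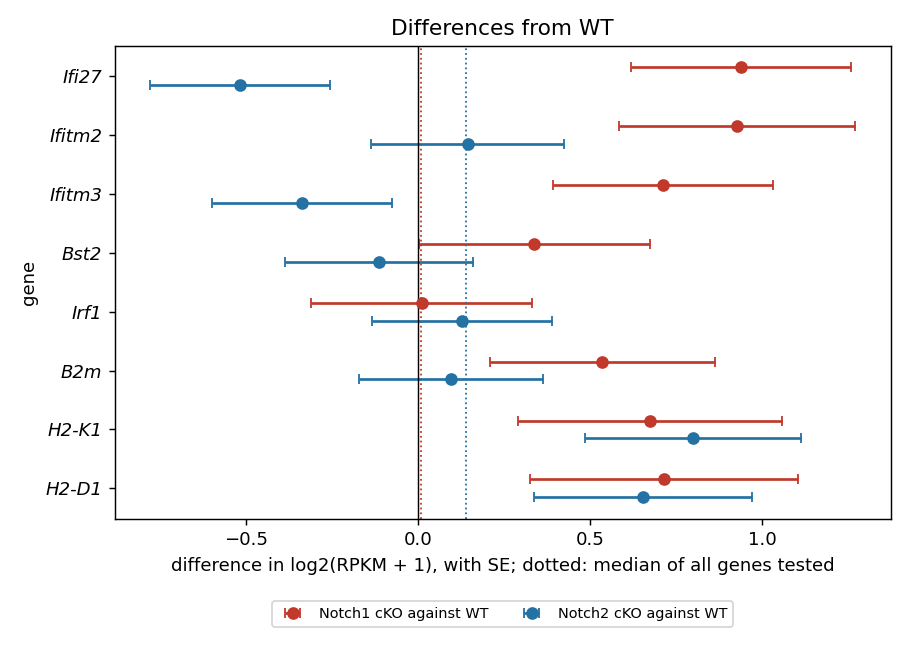
Difference from WT in log2(RPKM + 1) for the 8 genes tested, as points with standard errors from limma (red Notch1 cKO, 1 library; blue Notch2 cKO, 2 libraries); dotted lines are the medians of all genes tested, 0.01 and 0.14. The 2 comparisons share the WT libraries, and the points lie apart for Ifi27, Ifitm2 and Ifitm3 and close together for Irf1, H2-K1 and H2-D1.

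Between the knockouts, Ifi27 was lower in Notch2 cKO than in Notch1 cKO Em8 by a log2 difference of -1.46, Ifitm3 of -1.05 and Ifitm2 of -0.78. Bst2 (-0.45) and B2m (-0.44) lay lower by less, and Irf1 (0.12) close to the median of all genes tested (0.12). The median of the 8 was -0.44.

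Gene length moved with these values. By length recovered from the RPKM values, 7 of the 8 genes are shorter than the median gene tested (2616 bases), Irf1 being the exception. The 1086 genes of 600 to 1100 bases by that length had a median log2 difference of 0.04 in Notch1 cKO against WT. It was -0.17 in Notch2 cKO against WT and -0.24 in Notch2 cKO against Notch1 cKO. The correlations and trend removal that follow used GENCODE M21 exon lengths, 2938 bases for H2-K1 and 2579 for H2-D1. The trend was strongest within WT: the Spearman rank correlation of length with WT Em2 minus WT Em4 was -0.37. It was 0.20 for Notch2 cKO against WT, 0.05 for Notch1 cKO against WT and 0.13 between the knockouts. With the trend over length removed, the median of the 8 in Notch2 cKO against Notch1 cKO was -0.11 in place of -0.44, and the Notch2 cKO difference of Ifitm3 from WT was 0.01 in place of -0.34.

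The rest of the pathway was taken from lists of interferon and antigen presentation genes, 147 of them in the table and 63 tested. In Notch2 cKO against WT, limma called 0 of the 63, and 5 of them had an unadjusted p under 0.05, as did 881 of the 11543 genes tested. Both Notch2 cKO libraries stood above both WT for 11 of the 63 (28.3% of all genes tested) and below for 11 (9.44%). The lists were drawn up with the Notch1 result known, so the other comparisons are a description. Notch1 cKO Em8 stood above both WT libraries for 35 of the 63 (24.3% of all genes tested). The fit over all genes called 0.0693% of them in Notch1 cKO against WT and 0.485% in Notch2 cKO against Notch1 cKO, with 0 of the 63 among them, from which nothing is read. Medians of the 63 were 0.05 in Notch2 cKO against WT, 0.18 in Notch1 cKO against WT and -0.14 between the knockouts, beside 0.14, 0.01 and 0.12 for all genes tested.

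Interferons themselves were all but unread. Of 10 interferon genes, Ifna1 and Ifne were listed at 0 in all libraries, and 10 of 10 were at 0 in Notch2 cKO Em4. The highest value was 0.564 RPKM for Ifnb1, interferon beta, whose reads cannot be recovered from a value in 1 library, Notch2 cKO Em3. That library listed the fewest zeros over all genes too.

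Receptors and signalling genes were present, and 0 of 16 were called in Notch2 cKO against WT. Socs3, an inhibitor of JAK kinases induced by cytokines, was the most abundant of them, at 23.9 RPKM in WT Em2, 50.9 in WT Em4, 31.3 in Notch1 cKO Em8, 44.7 in Notch2 cKO Em3 and 84.2 in Notch2 cKO Em4. Its Notch2 cKO difference from WT was 0.79 on the log2 scale (SE 0.28, adjusted p = 0.322 in limma). Without WT Em4 it was 1.32 and called, with adjusted p = 0.0343, the sole pathway gene called under any alternative in that comparison. Jak1, a kinase of all interferon receptors, ran from 13.5 to 24.01 RPKM, and Irf3, which switches on interferon genes after viral sensing, from 20.9 to 27.8 RPKM. Irf9, a transcription factor of the type I interferon response, ran from 3.68 to 6.60 RPKM, with its highest value in Notch1 cKO Em8. Of 4 nucleic acid sensing genes, which include the kinase gene Tbk1 and the adaptor genes Sting1 and Mavs, 4 had a positive log2 difference in Notch2 cKO (68.1% of all genes tested did), with a median of 0.31 and 0 called.

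Interferon-induced effectors gave 22 tested genes. Of these, 17 had a positive log2 difference in Notch1 cKO (median 0.20), as did 51.5% of all genes tested. In Notch2 cKO, 11 had one (median -0.00), against 68.1% of all genes tested, and 0 were called. Ly6e, a surface protein that restricts coronavirus entry, had the order seen in Ifi27, at 67.4 RPKM in WT Em2, 63.9 in WT Em4, 81.5 in Notch1 cKO Em8, with 46.0 and 54.3 in Notch2 cKO. Ifi30, a lysosomal thiol reductase, had it too, at 26.2 and 22.4 RPKM in WT, 30.1 in Notch1 cKO Em8, with 22.05 and 18.5 in Notch2 cKO. Shisa5 ran from 11.7 to 17.5 RPKM with overlapping groups.

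Close relatives of the genes described here did not all follow them. Ifitm1, which lies beside Ifitm2 and Ifitm3, stood at 5.51 RPKM in WT Em2, 3.49 in WT Em4, 2.80 in Notch1 cKO Em8, with 1.43 and 3.06 in Notch2 cKO, so that Notch1 cKO Em8 was below both WT libraries. Ifi27l2a, a relative of Ifi27, stood at 3.80 and 2.65 RPKM in WT, 4.14 in Notch1 cKO Em8, with 1.25 and 1.65 in Notch2 cKO, in the order of Ifi27. Ifit2, a classical ISRE-driven gene, stood at 1.46 and 1.496 RPKM in WT, 1.43 in Notch1 cKO Em8, with 2.87 and 3.84 in Notch2 cKO, high where Ifi27 was low. Among 5 interferon-gamma GTPases, which attack the vacuoles of intracellular parasites, Irgm1 ran from 7.86 to 13.3 RPKM, Igtp from 4.21 to 7.42 and Iigp1 from 2.02 to 5.38, and 0 were called in Notch2 cKO against WT.

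For class I presentation beyond the 3 genes chosen, Notch1 cKO Em8 stood above both WT libraries for 4 of 5 other heavy chains and for 6 of 10 genes of peptide loading and the immunoproteasome, beside 24.3% of all genes tested. Fcgrt, the neonatal Fc receptor heavy chain, which pairs with beta-2 microglobulin, stood at 22.5 and 24.5 RPKM in WT, 37.6 in Notch1 cKO Em8, with 19.2 and 25.5 in Notch2 cKO. H2-T22 stood at 4.66 and 4.08 RPKM in WT, 5.25 in Notch1 cKO Em8, with 2.77 and 3.69 in Notch2 cKO, and Cd1d1, which presents lipids, ran from 2.13 to 3.01 RPKM. Tap1, a subunit of the peptide transporter, stood at 1.58 and 2.02 RPKM in WT, 3.14 in Notch1 cKO Em8, with 1.77 and 2.25 in Notch2 cKO. Psmb9, an immunoproteasome subunit, stood at 0.915 and 0.651 RPKM in WT, 2.23 in Notch1 cKO Em8, with 0.957 and 1.03 in Notch2 cKO. Its mean of 1.16 RPKM was close to the filter of 1 RPKM, where counting error is large. The more abundant Psmb10 stood at 20.3 and 18.0 RPKM in WT, 21.1 in Notch1 cKO Em8, with 14.3 and 13.1 in Notch2 cKO. Of these 10 genes, both Notch2 cKO libraries stood above both WT for 2 (28.3% of all genes tested) and below for 3 (9.44%).

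The Notch2 cKO libraries thus stood above both WT for H2-K1 and H2-D1 but not for H2-T22 and Fcgrt. They also did so for Cd1d1 (2.90 and 3.01 RPKM against 2.13 and 2.37 in WT). The protein folding genes Pdia3 and Calr, which serve many glycoproteins, ran from 178 to 320 and from 72.6 to 169 RPKM with no separation of Notch2 cKO from WT. Psme1, a proteasome activator subunit, was lower in both Notch2 cKO libraries (103.2 and 101.0 RPKM) than in WT (154 and 137), and its adjusted p was 0.683 in limma. H2-DMa, the class II gene tested, ran from 1.42 to 2.63 RPKM.

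**Figure D3:**
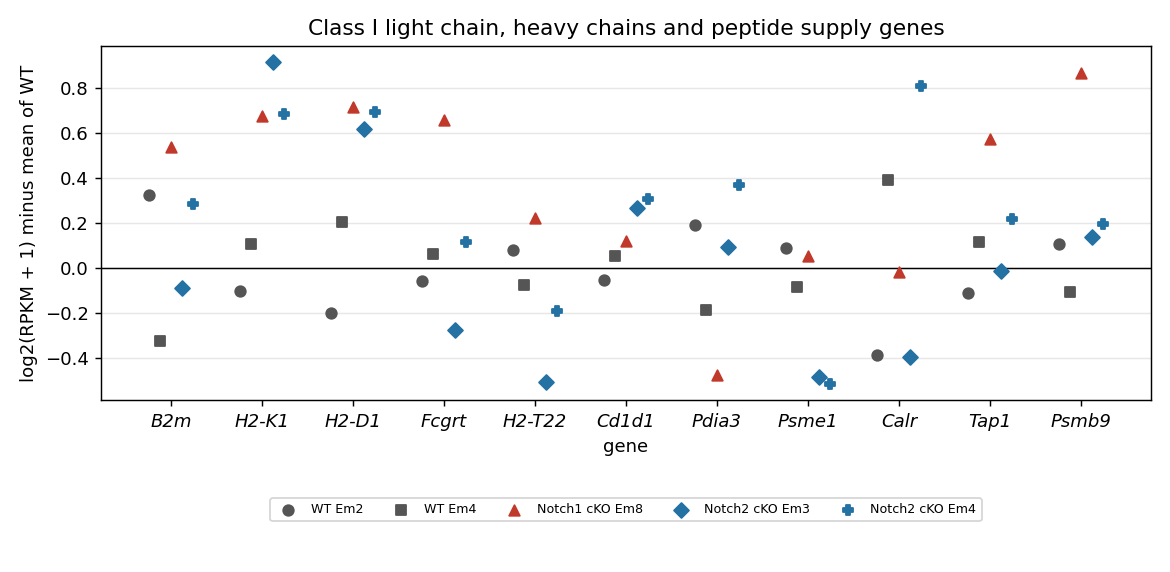
Log2(RPKM + 1) minus the mean of the WT libraries for class I genes, 1 point per library, with colour for the group and shape for the library. Both Notch2 cKO libraries lie above both WT libraries for H2-K1, H2-D1, Cd1d1 and Psmb9, and Notch1 cKO Em8 lies highest for B2m, H2-D1, Fcgrt, H2-T22, Tap1 and Psmb9. Psmb9 averaged 1.16 RPKM, close to the filter of 1 RPKM.

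Markers of other cells differed between the libraries as well, and in bulk RNA more cells of a type and more RNA per cell cannot be told apart. Notch1 cKO Em8 was the library in which most of the 8 genes were highest. It stood above both WT libraries for 12 of 12 interstitial fibroblast genes (24.3% of all genes tested). Their median log2 difference was 0.80, beside 0.01 for all genes tested. Among the fibroblast genes, Mfap5, a microfibril protein, stood at 6.12 and 6.32 RPKM in WT and at 23.4 in Notch1 cKO Em8. The most abundant, Col3a1, stood at 61.7 and 119.6 RPKM in WT, 148 in Notch1 cKO Em8, with 99.6 and 183 in Notch2 cKO. The fibroblast list was about as high in Notch2 cKO Em4 (498 RPKM summed) as in Notch1 cKO Em8 (478). Its single genes differed, Dpt standing at 14.9 RPKM in the former and 33.6 in the latter, and Lum at 21.6 and 15.8. In the same order, Ifi27 was at 43.8 and 114 RPKM. H2-K1 (2.99 and 2.97), H2-D1 (3.62 and 3.70) and Irf1 (94.5 and 94.3) were close.

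Erythroid genes, nearly all of the sum being adult globins, had the order of Ifi27. They summed to 984 and 1225 RPKM in WT, 1750 in Notch1 cKO Em8, with 522 and 451 in Notch2 cKO. Of 7 tested, 3 were called lower in Notch2 cKO than in WT, beside 0.537% of all genes tested called in either direction. In Notch1 cKO Em8, 4 of the 7 were above both WT libraries (24.3% of all genes tested). The embryonic globins Hbb-y (0.443 RPKM) and Hba-x (0.326 RPKM) were lowest there. Alas2, an enzyme of haem synthesis, lay between the WT libraries. Hba-a2, alpha globin, stood at 431 and 478 RPKM in WT, 676 in Notch1 cKO Em8, with 193 and 165 in Notch2 cKO (log2 difference from WT -1.34, adjusted p = 0.00459 in limma). Endothelial genes summed to 23.3 and 29.7 RPKM in WT, 43.8 in Notch1 cKO Em8, with 25.9 and 30.1 in Notch2 cKO, most of it Egfl7 (33.9 RPKM in Notch1 cKO Em8). Pecam1, which encodes the CD31 used in the sort, stayed at 0.657 RPKM or less.

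Blood cells other than red cells gave little RNA. Haematopoietic and macrophage genes summed to 17.9 RPKM in Notch1 cKO Em8 and ran from 14.7 RPKM in Notch2 cKO Em3 to 33.9 in Notch2 cKO Em4, with both WT libraries in between, and Ptprc, which encodes CD45, stayed at 0.145 RPKM or less. Mast cell genes summed to 3.42 and 8.99 RPKM in WT, 1.25 in Notch1 cKO Em8, with 11.4 and 31.4 in Notch2 cKO. Of the 3 tested, limma called the mast cell proteases Cpa3 and Tpsb2 higher in Notch2 cKO than in WT (adjusted p = 0.0336 and 0.00459). Of all genes tested, 0.537% were called in either direction. Pericyte and smooth muscle genes, nearly all Acta2, summed to 386 and 363 RPKM in WT, 464 in Notch1 cKO Em8, with 519 and 532 in Notch2 cKO, and Schwann cell genes to 6.74 RPKM or less. The part of these cells in the levels of the 8 genes was not tested.

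**Figure D4:**
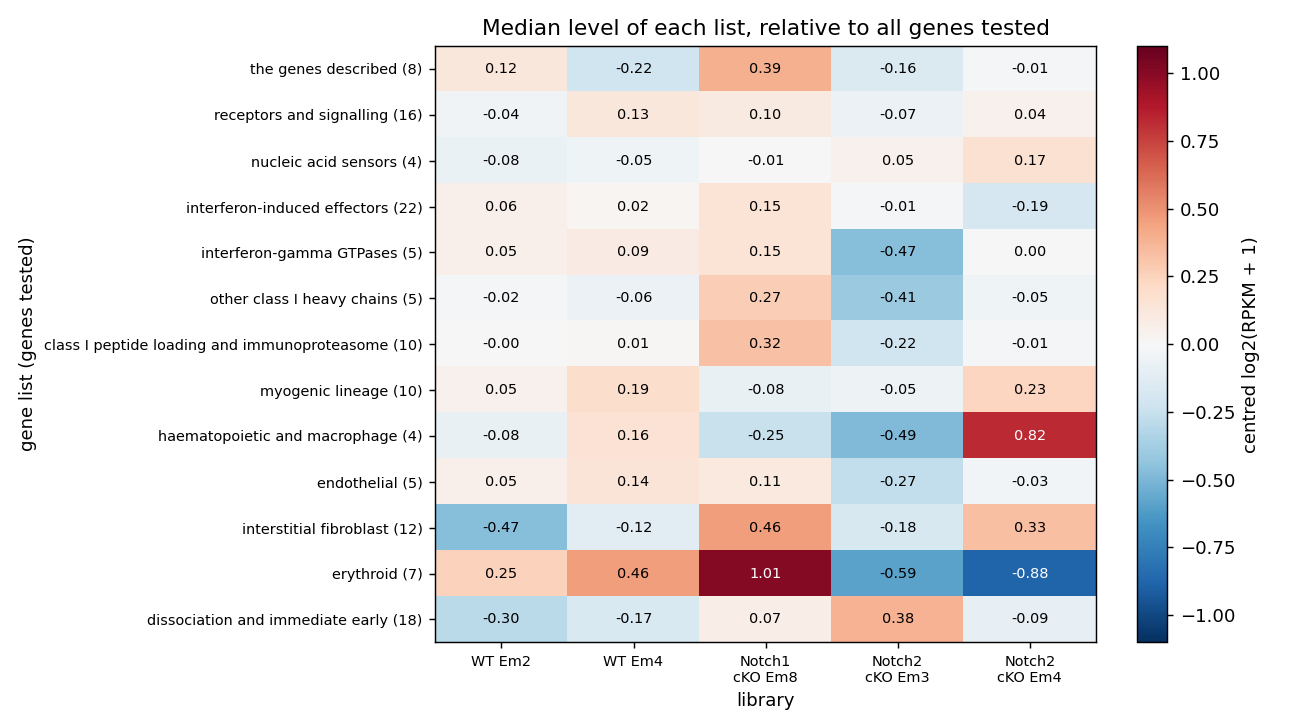
Median over the genes of each list of log2(RPKM + 1), centred per gene over the 5 libraries and set against the same median over all genes tested; rows are lists with the number of genes tested, columns are libraries. The genes described are highest in Notch1 cKO Em8 (0.39), where the erythroid (1.01) and interstitial fibroblast (0.46) lists are also highest. So are the interferon-induced effectors (0.15), interferon-gamma GTPases (0.15), other class I heavy chains (0.27) and class I peptide loading genes (0.32). The receptor and signalling list and the nucleic acid sensor list are highest in other libraries.

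The profile that the genes share was shallow. The median of the 8, centred per gene, was -0.05 in WT Em2, -0.19 in WT Em4, 0.35 in Notch1 cKO Em8, -0.08 in Notch2 cKO Em3 and 0.05 in Notch2 cKO Em4. Single genes departed from this profile by a root mean square of 0.18 to 0.42 on the log2 scale. Of 5684 other genes averaging 10 RPKM or more, whose median departure was 0.31, the 6 nearest were Gm2573 (0.052), Sgce (0.054), Pxmp4 (0.059), Atraid (0.070), Gm6155 (0.072) and ND1 (0.073). Sgce encodes a sarcoglycan and ND1 a subunit of mitochondrial complex I.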

How the data were processed

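The authors deposited RPKM values for 27179 rows and 5 libraries (SMART-Seq v4 kit, paired ends, per the labels' protocols). Per the submitters' processing notes, bcl2fastq 2.20.0 and the mm10 build were used; aligner, counter and annotation: not given in the sources used here. The 1306 rows without a gene name (2.19% to 3.07% of summed RPKM) were left out. Whole reads were recovered from the RPKM steps: 95.0% of 1165 low genes gave a whole length within 0.02 bases, and 23438 of 23440 genes were recovered. The shortest length that gave whole reads in all 5 libraries was taken, so for genes of few reads the result is a lower limit. Such reads carry no molecular identifiers, so limits from them cover counting error only.

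The test was limma's lmFit and trended eBayes (limma 3.58.1, R 4.3.3), run on log2(RPKM + 1), which understates changes of low genes, with a mean per group, all 5 libraries and the 11543 genes of mean at least 1 RPKM. It was tested on simulated data with the same scatter setting for all genes and no library effects, which does not show how it performs on these libraries. Two-sided p-values were adjusted over all genes tested (Benjamini-Hochberg). There were 2 residual degrees of freedom and a prior of 103.8; an exact permutation test of 2 against 2 cannot go below 0.333. Positions are from GENCODE M21 (GRCm38), matched by symbol. Besides the group, each column name holds a tag such as Em2 and digits, neither found in a sample's label, so libraries were assigned to groups and not to single samples.

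The genes and lists were chosen with earlier results of these data known. Named besides them are the 3 most abundant tested genes of each pathway list, the most abundant of each marker list and the 6 nearest in profile. Chosen after their values were seen were Irf9, Ifitm1, Ifi27l2a, Ifit2, Tap1, Psmb9, Psmb10, Ifnb1, Ifna1, Ifne, Mfap5, Dpt, Lum, Ptprc, Pecam1, Hspa1a, Hspa1b, Hbb-y, Hba-x, Alas2, Cpa3 and Tpsb2. The most abundant genes of the remaining marker lists were Junb, Cd68, Cma1, Acta2 and Erbb3. Some genes are not reported here.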

Additional observations from a re-analysis of the deposited data

Results flagged for a closer look

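Ifi27, Ifitm3 and Isg15 drew attention because the 2 knockouts moved to opposite sides of WT. Notch1 cKO Em8 was above both WT libraries and both Notch2 cKO libraries were below them. Notch2 cKO minus Notch1 cKO was -1.46 for Ifi27, -1.05 for Ifitm3 and -1.16 for Isg15 on the log2(RPKM + 1) scale. The difference was not tested, since the genes were chosen with the Notch1 result known, and the 2 effects share their WT libraries.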

How the results depend on the processing

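None of the 8 genes was called in Notch2 cKO against WT under any alternative run, and the lowest adjusted p in limma was 0.277 for H2-K1, 0.302 for H2-D1 and 0.440 for Ifi27. All-gene calls moved far more. In Notch2 cKO against WT, 62 calls became 0 without the filter, 33 at a mean of at least 5 RPKM, 28 rescaled to the same sum, 5 with quantile normalization, 28 with the length trend removed, 0 with limma voom on recovered reads, and 13 (without WT Em2) to 278 (without WT Em4) leaving out a library. In Notch1 cKO against WT, 8 became 15 with a pseudocount of 0.1, 0 without the filter, 22 with median-of-ratios scaling, 3 with the same sum, 1 with quantile normalization, 4 with the length trend removed, 1 with voom, and 1 (without WT Em4) to 6 leaving out a library. In Notch2 cKO against Notch1 cKO, 56 became 0, 86, 27, 11, 18 and 9 (no filter, median-of-ratios, same sum, quantile, length, voom). The median of the 8 genes there became -0.11 with the length trend removed. Pathway calls in Notch2 cKO against WT ran from 0 to 1 (Socs3, without WT Em4).

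Signs of uncalled Notch2 cKO differences turned as follows. Median-of-ratios scaling gave -0.073 for Ifitm2, -0.12 for B2m and -0.087 for Irf1. Rescaling to the same sum gave 0.054 for Bst2. Removing the length trend gave 0.013 for Ifitm3 and 0.18 for Bst2. Leaving out a library gave -0.030 (without WT Em2) to 0.29 for Irf1, -0.23 (without WT Em4) to 0.42 for B2m, which was -0.091 without Notch2 cKO Em4, and, without Notch2 cKO Em4, -0.11 for Ifitm2 (up to 0.39) and 0.10 for Bst2 (down to -0.33). The causes were not tested. Ifi27, H2-K1 and H2-D1 kept their signs in all of these. No paired analysis was possible because the column names carry no replicate number. Between the libraries that share digits (Notch2 cKO Em4 against WT Em4, 1 against 1, no test), the difference was 0.51 for Ifitm2, 0.61 for B2m, -0.065 for Ifitm3 and -0.14 for Irf1, which turned sign, and 0.58 for H2-K1, 0.49 for H2-D1 and -0.41 for Ifi27. With 1 Notch1 cKO library, its spread is assumed, and low genes such as Isg15 are limited by counting error.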
